A study of Mus musculus with 3 samples.

Results

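Very wide accessible peaks are the far tail of the peak lists of mouse whole brain: peaks at least 4000 bp from start to end in any of 3 libraries. There were 1193 such peaks among 1985768 peaks in all, 48 in sciATACv1, 272 in sciATACv2 and 873 in sciATACv3. Joining wide peaks of different libraries that overlapped by at least 1 bp left 1161 regions, out of 825954 regions when all peaks of the series were merged in the same way. The members were chosen by the measured width alone, so the widths and the number of libraries in which a region is wide are given as a description without a test.

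All nuclei came from whole brain of C57BL6 mice, were freed by mincing and douncing, and went through single-cell combinatorial indexing ATAC-seq, in which the transposase Tn5 cuts open chromatin and attaches a well barcode. A round of indexed PCR in a chip of nanowells added a further barcode. The series holds 1 library of each version, sciATACv1, sciATACv2 and sciATACv3 (v1, v2 and v3 below), while the labels do not say how the versions differ, how many animals of which sex and age were used, or how deeply each library was sequenced. With 1 library a version there is no replicate error, so values of v1, v2 and v3 stand side by side and no difference between them was tested.

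Accessible chromatin in most tissues comes in short stretches at promoters and enhancers, where transcription factors displace nucleosomes. Long stretches are known at clusters of neighbouring enhancers around cell identity genes and at the promoters of developmental regulators that lie in long CpG islands. Peaks of unusual width or height are also a known artefact where many genomic copies of a repeat, such as ribosomal DNA or satellite repeats, are collapsed onto few copies in the assembly.

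Promoters that lay whole inside a peak in every library, in a region that was wide in at least 2 of them, are shown here. The regions wide in every library held no annotated start. The promoters shown were 3, those of Nrp2, Lsmem1 and Ankrd33b, and each lay in a region wide in v1 and v3. Each sequence runs from 250 bases before the annotated start to 50 after it, 300 bases in all, read 5′ to 3′ on the gene's strand from RefSeq's promoters of GRCm38.p6, the build called mm10. Capitals mark matches to CCAAT, the core of the NF-Y site, and to GGGCGG or its reverse complement, the GC box bound by Sp1-type factors.
Nrp2: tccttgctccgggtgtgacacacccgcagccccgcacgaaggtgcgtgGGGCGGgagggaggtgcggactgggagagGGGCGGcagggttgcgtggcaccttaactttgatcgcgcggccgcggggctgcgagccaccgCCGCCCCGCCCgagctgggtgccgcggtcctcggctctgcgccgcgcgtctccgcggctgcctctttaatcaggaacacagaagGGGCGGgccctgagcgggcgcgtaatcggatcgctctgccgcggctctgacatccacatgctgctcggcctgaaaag
Lsmem1: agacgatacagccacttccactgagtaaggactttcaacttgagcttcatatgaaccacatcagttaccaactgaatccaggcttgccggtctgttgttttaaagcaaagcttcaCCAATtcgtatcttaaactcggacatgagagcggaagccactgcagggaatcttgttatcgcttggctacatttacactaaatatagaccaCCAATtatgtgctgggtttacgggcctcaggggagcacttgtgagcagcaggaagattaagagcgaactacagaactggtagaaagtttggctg
Ankrd33b: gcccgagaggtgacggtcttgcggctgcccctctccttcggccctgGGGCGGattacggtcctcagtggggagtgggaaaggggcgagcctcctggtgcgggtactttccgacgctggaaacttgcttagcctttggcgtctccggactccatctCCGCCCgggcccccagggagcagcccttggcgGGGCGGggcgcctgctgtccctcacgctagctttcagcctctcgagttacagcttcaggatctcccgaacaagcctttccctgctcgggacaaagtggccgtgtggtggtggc
Nrp2, a receptor for class 3 semaphorins, has this promoter at chr1:62703067-62703366 on the plus strand, with a GC content of 70.7% and an observed-to-expected CpG ratio of 0.992. The promoter of Ankrd33b, an ankyrin repeat gene, lies at chr15:31367710-31368009 on the minus strand, with 66.0% GC and a CpG ratio of 0.674. Lsmem1, a gene for a small membrane protein, starts in a stretch of another composition, at chr12:40199266-40199565 on the minus strand, with 45.3% GC and a CpG ratio of 0.519. The widest peaks over these regions were 4654, 3176 and 5105 bp in v1, v2 and v3 at Nrp2, 4278, 3448 and 4154 bp at Lsmem1, and 4092, 2765 and 4430 bp at Ankrd33b. The other motifs searched, named further on, had no match in these windows. A motif match describes the letters of the window and is not a bound site.

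A brain microRNA also lay in a wide peak and is shown because miR-128 is a known neuronal microRNA, a choice made after the regions were seen. The hairpin of Mir128-2, which sits in an intron of Arpp21 and gives miR-128, was inside a v2 peak of 4678 bp at chr9:112116172-112120849, where v1 had 3 peaks of up to 2042 bp and v3 had 2 of up to 3774 bp. Its mature arms follow, in RefSeq's letters with the seed, bases 2 to 8, in capitals.
mmu-miR-128-3p: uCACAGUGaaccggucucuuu
mmu-miR-128-2-5p: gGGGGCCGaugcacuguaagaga
Of the 1161 regions, 6 held a microRNA hairpin. The others were Mir546 with Ctdsp2 and Avil and Mir7010 in Gucy1a1, both under v3 peaks, of 5129 and 4180 bp. Mir7657 in Fnbp1l was under a v2 peak of 4628 bp, Mir7034 at Por and Tmem120a under a v3 peak of 4856 bp, and Mir7243 in Ephb1 under a v1 peak of 4607 bp. The share of all peaks that hold a hairpin was not counted, and a longer stretch has more room for one. The 6 are therefore a description and not a trait of wide peaks.

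Wide peaks made up a share of 0.00771% of the peaks of v1 (95% Clopper-Pearson interval 0.00568 to 0.0102), 0.0320% of v2 (0.0283 to 0.0360) and 0.171% of v3 (0.159 to 0.182). The lists themselves held 622754, 850991 and 512023 peaks, so the list with the fewest peaks had the most wide ones. Intervals here and below cover counting error only, since peaks of 1 library are not replicates. Of the bases that peaks covered, wide peaks held 0.0467% (v1), 0.178% (v2) and 0.800% (v3).

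Most wide peaks lay close to the minimum width. Their median width was 4194 bp in v1, 4263 bp in v2 and 4328 bp in v3, and 64.6%, 74.3% and 64.4% of them were under 4500 bp. Only 3, 22 and 107 reached 5000 bp, and 1, 3 and 17 reached 6000 bp. Just inside the minimum the narrowest wide peaks measured 4011, 4000 and 4000 bp, and just outside it the widest of the other peaks measured 3966, 3997 and 3999 bp. From 3500 to under 4000 bp there were 121, 662 and 1508 peaks, so the minimum divides a continuous tail and no gap in width sets the members apart.

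**Figure D1:**
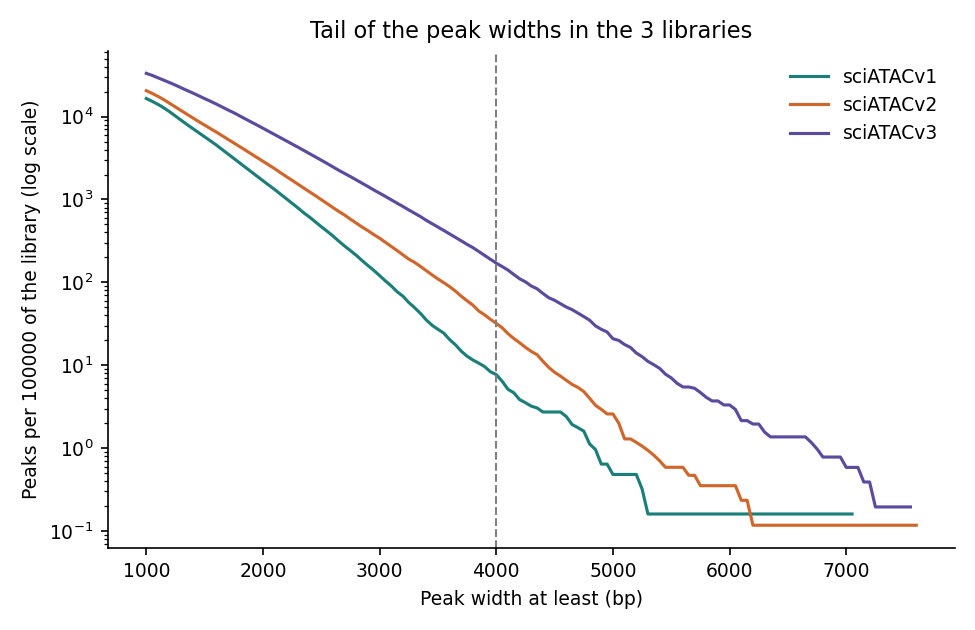
Peaks at least as wide as the value on the horizontal axis (bp), per 100000 peaks of each library on a log scale. At the dashed line of 4000 bp the curves pass through 7.71 in v1, 32.0 in v2 and 170.5 in v3, without a step there.

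The 5 widest peaks of v1 were led by the copy of ribosomal DNA on chromosome 17, with peaks of 7051 and 5228 bp, the widest of all and the next but one. A peak of 5296 bp over Ppp6r2, a regulatory subunit gene of protein phosphatase 6, and Sbf1, a myotubularin family gene, stood between them at chr15:89283795-89289090. Lingo2, a leucine-rich repeat membrane protein gene, had 4984 bp at chr4:35769297-35774280, and Evx2, a homeobox gene beside the HoxD cluster, had 4893 bp at chr2:74654665-74659557. Outside the ribosomal copy these loci had narrower peaks in the other libraries. The widest peaks overlapping the v1 peak were 3851 bp in v2 and 3785 bp in v3 at Ppp6r2 and Sbf1, 2338 and 3757 bp at Lingo2, and 2330 and 2390 bp at Evx2.

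In v2 the widest peak measured 7606 bp and lay in Pde2a, the gene of a cyclic nucleotide phosphodiesterase, at chr7:101508021-101515626. The same stretch held 8 peaks of v1 covering 75.5% of it, the widest 1195 bp, and 5 peaks of v3 covering 61.3%, the widest 2016 bp. It was followed by Ldlrad4, a regulator of TGF-β signalling, with 6155 bp at chr18:68029533-68035687, and by a stretch of 6060 bp without a gene near the start of chromosome 4. Adora2a, the adenosine receptor gene of striatal indirect pathway neurons, had 5733 bp at chr10:75324402-75330134. There v1 peaks covered 48.3% of the v2 peak and v3 peaks 31.7%, the widest v3 peak being 819 bp. A peak of 5649 bp over Klc1, a kinesin light chain gene, and Xrcc3, a DNA repair gene, at chr12:111800256-111805904 was the fifth, and v1 was wide there too, at 4256 bp, while v3 had 1491 bp.

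In v3 the widest peak measured 7578 bp, in Ube2d2a, the gene of a ubiquitin-conjugating enzyme, at chr18:35789933-35797510. The stretch held 8 v1 peaks covering 80.2% of it, the widest 1472 bp, and 5 v2 peaks covering 86.2%, the widest 1674 bp. Next came 7224 bp over Atg4d, an autophagy protease gene, and Kri1 at chr9:21270593-21277816, and 7146 bp in Ywhaz. Ppp2r1a, the scaffold subunit gene of protein phosphatase 2A, had 6958 bp at chr17:20964967-20971924, where peaks covered 43.2% in v1 and 54.0% in v2. Strbp, a gene for an RNA-binding protein, had 6776 bp at chr2:37690030-37696805, with v1 peaks of up to 984 bp and v2 peaks of up to 3236 bp. Of these loci of v3, Ywhaz was wide in the other libraries too, and the others were wide in v3 alone.

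**Figure D2:**
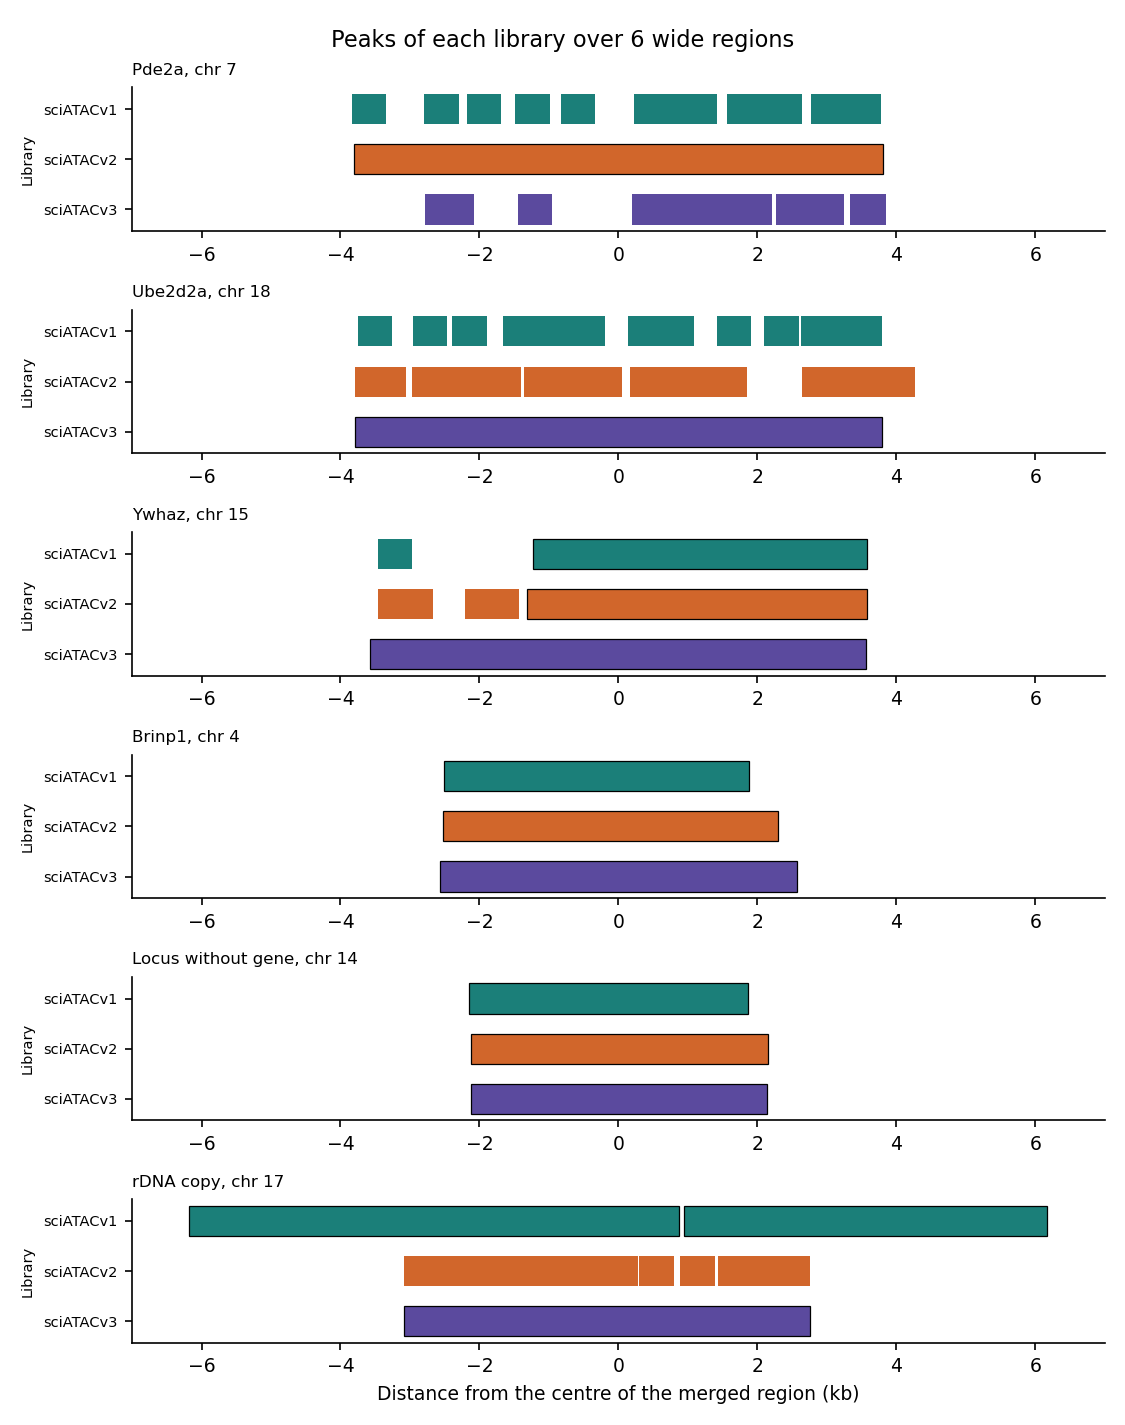
Peaks of each library over 6 merged regions, drawn by distance from the region's centre (kb), with v1, v2 and v3 from top to bottom and a black outline on peaks of at least 4000 bp. Pde2a is 1 peak of 7606 bp in v2 and 8 peaks in v1, Ube2d2a is 1 peak of 7578 bp in v3 and 8 in v1, and Ywhaz, Brinp1 and the chromosome 14 locus are wide in every library.

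Nearly all wide peaks met a peak in the other libraries, and most met at least 2 there. Each of the 48 wide v1 peaks met a peak of v2 and of v3, each of the 272 wide v2 peaks met a v1 peak and 269 met a v3 peak, and of the 873 wide v3 peaks 871 met a v1 peak and 873 a v2 peak. At least 2 separate peaks overlapped the wide one in 40 cases for v1 seen in v2, 33 for v1 in v3, 252 for v2 in v1, 225 for v2 in v3, 838 for v3 in v1 and 843 for v3 in v2. Any overlap of at least 1 bp counted, also by a peak that was itself wide. Over all wide peaks, the other library was wide too in 6, 13, 6, 16, 12 and 16 cases, in the same order. A wide v1 peak was covered to a median of 89.7% by v2 and 89.9% by v3. A wide v2 peak was covered to a median of 76.0% by v1 and 76.3% by v3, and a wide v3 peak to 74.1% by v1 and 81.2% by v2. The widest peak that stood there had a median width of 2672 and 2884 bp for v1 peaks, 1709 and 2100 bp for v2 peaks, and 1561 and 1839 bp for v3 peaks, in the same order of libraries.

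Peaks of 2000 to under 4000 bp met the other libraries at similar rates, and meeting at least 2 peaks was also common for them. A peak of the other library was met by 97.2% (v2 in v3) to 99.9% (v3 in v2) of them. Their median coverage was 95.2% and 93.1% for v1 peaks, 78.3% and 82.3% for v2 peaks and 74.9% and 83.5% for v3 peaks. These medians follow the order of libraries above. At least 2 v2 peaks overlapped 96.6% of the wide v3 peaks, against 71.5% of the narrower class. For wide v3 peaks in v1 it was 96.0% against 68.2%. Wide v1 peaks had 83.3% against 52.7% in v2 and 68.8% against 40.6% in v3. Wide v2 peaks had 92.6% against 59.2% in v1 and 82.7% against 43.5% in v3. Since a longer stretch has room for more peaks and since each wide peak was chosen for its width in its own library, these shares are a description of the lists.

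Of the 1161 regions, 1156 had a peak in every library, and 1133 were wide in 1 library, 25 in 2 and 3 in all. By library, 32 were wide in v1 alone, 253 in v2 alone and 848 in v3 alone, with 3 shared by v1 and v2, 9 by v1 and v3, and 13 by v2 and v3. Of the 47 regions wide in v1, 15 were therefore wide in another library too. A region without a v1 peak occurred in 2 cases, v3 peaks of 4411 bp in Tnfrsf19, a TNF receptor family gene, and of 4945 bp at Bms1, a ribosome assembly gene. A region without a v3 peak occurred in 3 cases, all v2 peaks, in Cacna2d3, a calcium channel subunit gene, in Gnb1l, and near Akap14 on chromosome X.

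The 3 regions wide in every library were at Ywhaz, at Brinp1 and at a locus of chromosome 14 without a gene. Ywhaz codes for the 14-3-3ζ adaptor protein and is widely used as a reference gene. Its region at chr15:36775514-36782674 had widest peaks of 4800 bp in v1, 4899 bp in v2 and 7146 bp in v3. The right edges lay at 36782665, 36782674 and 36782659, so the right edges of the libraries lay close together, and v3 reached further left, over bases where v1 had a peak of 500 bp and v2 peaks of 794 and 775 bp. Brinp1, a gene of the nervous system named for its induction by BMP and retinoic acid, had 4394, 4817 and 5134 bp at chr4:68834543-68839676, inside the gene. The left edges there lay at 68834594, 68834586 and 68834543. The chromosome 14 locus, at chr14:19415585-19419899, had 4024, 4281 and 4261 bp, with left edges at 19415585, 19415619 and 19415615, and the closest end of a protein-coding gene, Gm2244, lay 115959 bp away.

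The regions wide in 2 libraries are illustrated by a few of the 25, picked after their values were seen. Isl2, a LIM homeobox gene of motor neurons, had widest peaks of 4602, 1732 and 5791 bp in v1, v2 and v3, and Sox14, a transcription factor gene of interneuron lineages, had 1546, 4325 and 4527 bp. Alx1, a homeobox gene of craniofacial mesenchyme, had 4158, 3018 and 4854 bp. The library that was not wide fell short of the minimum by 2268, 2454 and 982 bp at these loci.

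Grin2b, the gene of the NMDA receptor subunit GluN2B, had 1273, 4452 and 5304 bp inside the gene and 4206, 4567 and 3422 bp at a second region outside its annotated end. Nrg3, a ligand gene of ErbB4, had 2139, 4157 and 5404 bp, and Phactr1, a regulator of actin and phosphatase 1, had 1977, 4105 and 4005 bp. Celf2, a gene for an RNA-binding protein that controls splicing, had 3579, 4067 and 4031 bp inside the gene and 2348, 4021 and 6680 bp in a region just outside the gene, with its midpoint 4088 bp from the annotated end. Rab10, a GTPase of membrane traffic, had 4702, 2783 and 4694 bp, and Hmgn3, a nucleosome-binding protein gene, had 965, 4154 and 4290 bp.

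**Figure D3:**
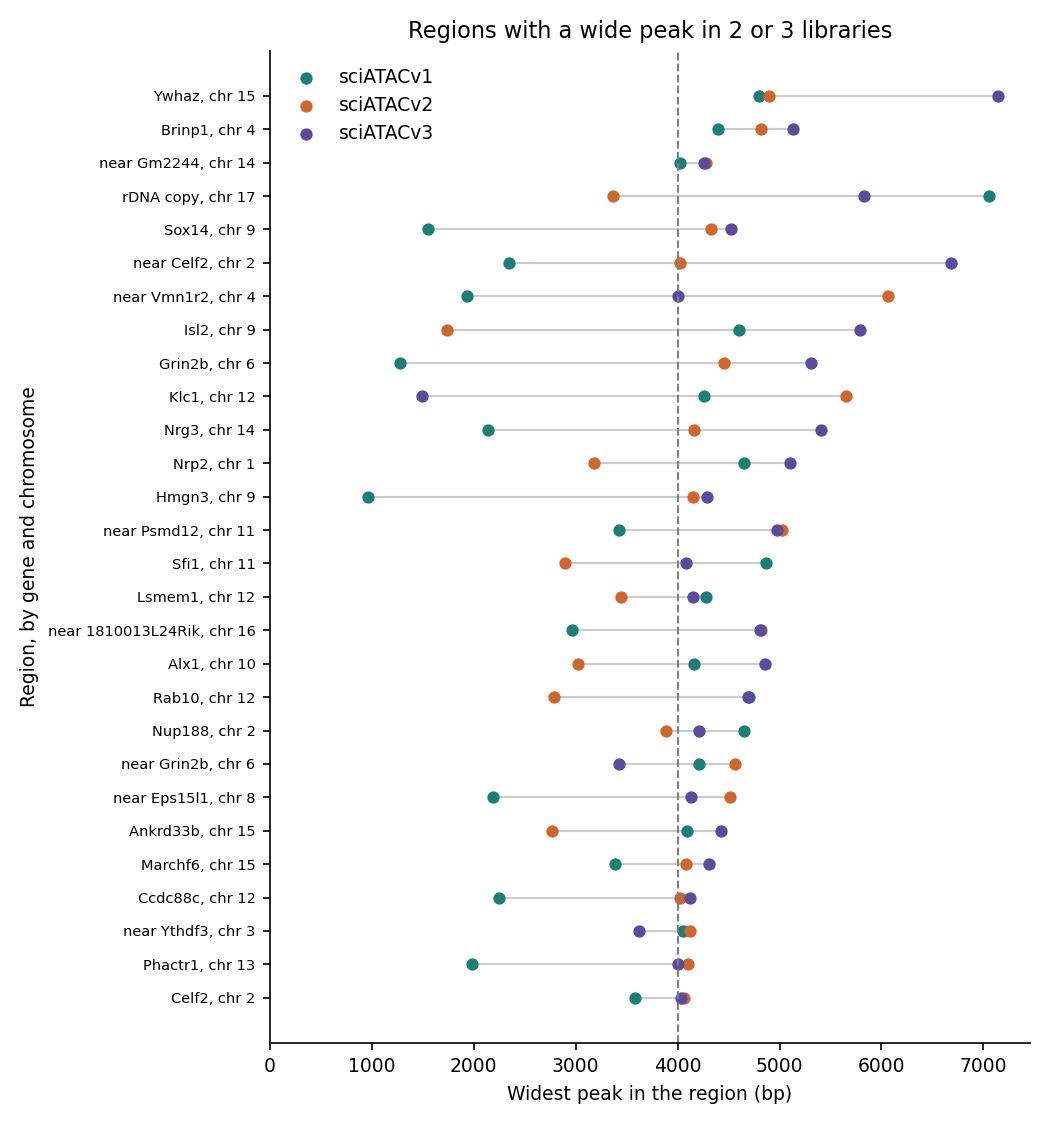
Widest peak (bp) of v1, v2 and v3 in each of the 28 regions that were wide in 2 or 3 libraries, named by gene or nearest protein-coding gene and chromosome, with the minimum of 4000 bp dashed. In the 3 regions at the top all points lie right of the line, and in the others the third library ranges from 965 bp at Hmgn3 to 3886 bp at Nup188.

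At the loci known for artefacts, 5 of the 1161 regions were found, with 4 of the 48 wide peaks of v1, 3 of 272 of v2 and 4 of 873 of v3. Peaks of any width in v1, v2 and v3 numbered 4, 6 and 2 at the ribosomal copy and 43, 45 and 34 at Sfi1. The start of chromosome 4 had 28, 17 and 17, and the chromosome 14 locus 1 each. Of 20 chromosome starts, 19, 18 and 18 held a peak and 1, 1 and 2 a wide one. The share of all peaks at listed loci was not computed. Of 19 genes listed for such loci, 8 were in the gene table. The widest region of all, with 12351 bp, was the ribosomal DNA copy at chr17:39839904-39852254, which holds the genes Rn18s-rs5 and AY036118. There v1 had peaks of 7051 and 5228 bp, v2 had 4 peaks of 3366, 500, 500 and 1312 bp, and v3 had 1 peak of 5833 bp. The outer edges of the v2 peaks and of the v3 peak were the same base at both ends, 39842997 and 39848829, while the v1 peaks began at 39839904 and ended at 39852254.

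Sfi1, a centrosome gene with many partial copies in the mouse genome, had widest peaks of 4870, 2894 and 4080 bp at chr11:3184142-3189045. Near the start of chromosome 4, chr4:3079196-3085255 had 1937, 6060 and 4003 bp, and chr4:3066014-3070113 was wide in v2 alone, at 4100 bp. The chromosome 14 locus above was counted among the 5 after its peaks had been seen. The other listed loci held no wide peak: the mitochondrial copies at Gm10222 and Gm10925 had widest peaks of 1261, 864 and 1112 bp and of 1261, 1224 and 1112 bp in v1, v2 and v3, the rRNA-like locus Lars2 had 2098, 2471 and 3890 bp, and Erdr1 and Mid1 of the pseudoautosomal boundary had 882, 1003 and 916 bp and 2625, 1822 and 2486 bp. Without the 5 regions, 44, 269 and 869 wide peaks remained, so 1156 regions lay elsewhere, though loci beyond the list were not examined.

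Wide peaks lay in genes more often than the narrower peaks of the same library, whose share was outside the interval of the wide ones in each library. The midpoint was inside a gene span for 87.5% of wide v1 peaks (74.8 to 95.3), against 67.7% of v1 peaks under 4000 bp. In v2 it was 77.6% (72.1 to 82.4) against 64.6%, and in v3 82.6% (79.9 to 85.0) against 70.4%. The difference did not begin at 4000 bp: peaks of 3000 to under 4000 bp had 79.7%, 78.9% and 82.0%, and peaks of 2000 to under 3000 bp had 79.5%, 75.8% and 77.2% in v1, v2 and v3. These shares lay inside the intervals of the wide peaks, except that of v3 peaks of 2000 to under 3000 bp, which was lower. Wide peaks were also closer to gene ends, starts included, than all narrower peaks together. Their median distances from midpoint to the nearest protein-coding gene end were 13912, 22966 and 18370 bp, against 38504, 38303 and 32301 bp. This difference did not begin at 4000 bp either. Peaks of 3000 to under 4000 bp had 16541, 21924 and 21400 bp, and peaks of 2000 to under 3000 bp had 21738, 24408 and 24220 bp. Wide v2 peaks were thus farther from ends than v2 peaks of 3000 to under 4000 bp.

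At the ends of genes the order was different. Here an end is either limit of the gene span, the start or the 3′ end. The midpoint lay within 1 kb of a protein-coding gene end for 9 of 48 wide v1 peaks or 18.8% (8.95 to 32.6), 16 of 272 wide v2 peaks or 5.88% (3.40 to 9.38), and 105 of 873 wide v3 peaks or 12% (9.94 to 14.4). Peaks under 4000 bp had 4.69%, 4.03% and 5.02%, and peaks of 2000 to under 3000 bp 17.6%, 11.2% and 13.8%. The wide v2 peaks were therefore near ends less often than v2 peaks of 2000 to under 3000 bp, whose share was above the interval of the wide peaks, and in v1 and v3 the share of the class of 2000 to under 3000 bp lay inside the interval of the wide ones. Of the peaks outside chromosome 18, where starts were not used, a start was held by 8 of 48 wide v1 peaks or 16.7% (7.48 to 30.2), 16 of 263 wide v2 peaks or 6.08% (3.52 to 9.69) and 86 of 842 wide v3 peaks or 10.2% (8.25 to 12.5). The share among peaks of 2000 to under 3000 bp was 15.7%, 9.69% and 11.7%, inside or at the edge of the intervals of the wide peaks. Among peaks under 4000 bp it was 2.08%, 1.65% and 2.53%.

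**Figure D4:**
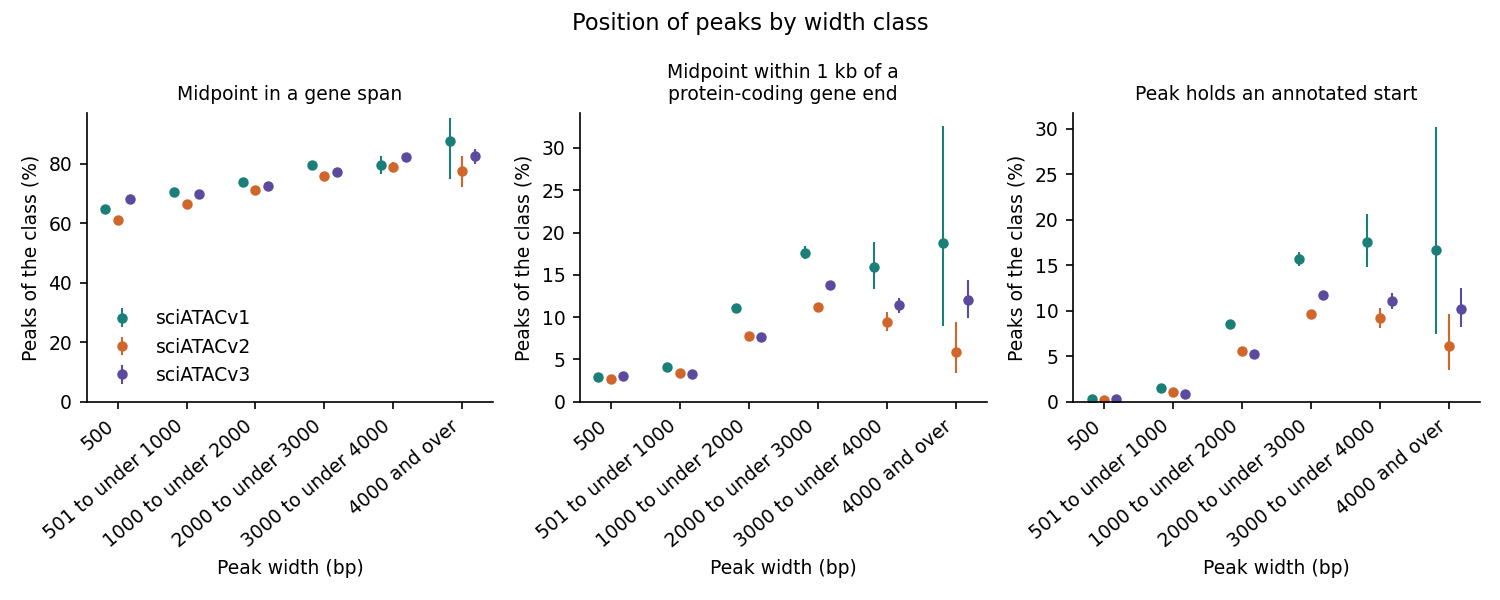
Share of peaks (%) by width class, narrow to wide, with the midpoint in a gene span, with the midpoint within 1 kb of a protein-coding gene end, and holding an annotated start, for v1, v2 and v3 with 95% Clopper-Pearson intervals. A gene end is either limit of the gene span, the start or the 3′ end. The share in a gene is 77.6% to 87.5% in the widest class. In the other panels v2 is the lowest of the libraries in that class, at 5.88% and 6.08%.

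Around the starts that wide peaks held on 1 strand only, the median reach was larger downstream, inside the gene, than upstream. Medians were 2868 bp downstream and 1200 bp upstream in v1 (n = 8 peaks), 3128 and 1191 bp in v2 (n = 16) and 2852 and 1571 bp in v3 (n = 82). The downstream reach was the larger in 8 of 8 v1 peaks or 100% (63.1 to 100) and 11 of 16 v2 peaks or 68.8% (41.3 to 89.0). In v3 it was the larger in 55 of 82 peaks or 67.1% (55.8 to 77.1). The interval of v2 includes an even split. Peaks of 2000 to under 4000 bp that held a start leaned the same way, in 70.8%, 70.9% and 70.0%, so the lean is shared with the narrower class.

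**Figure D5:**
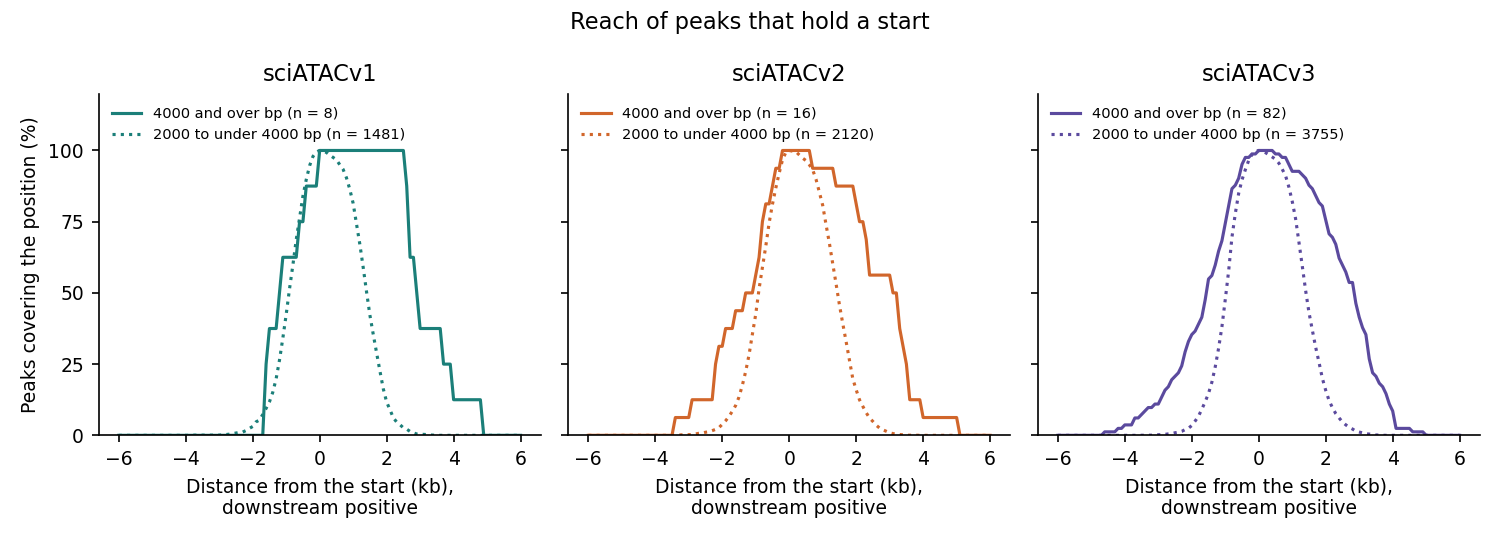
Share of the peaks holding an annotated start (%) that cover each position by distance from that start (kb), downstream positive, for peaks of at least 4000 bp (solid) and of 2000 to under 4000 bp (dotted) in v1, v2 and v3. Solid curves stretch further downstream than upstream, with medians of 2868, 3128 and 2852 bp downstream.

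Within genes, wide peaks of v2 and v3 lay near the start less often than peaks of 2000 to under 4000 bp, and wide peaks of v3 lay near the 3′ end more often. Among v2 wide peaks inside protein-coding genes of known strand, 26 of 159 or 16.4% (11 to 23.0) lay within 5 kb of the 3′ end, against 11.1% (10.5 to 11.6) of v2 peaks of 2000 to under 4000 bp, and among v3 wide peaks 78 of 545 or 14.3% (11.5 to 17.5), against 8.56% (8.18 to 8.95). The interval of v2 holds the share of its narrower class and that of v3 does not. Within 5 kb of the start lay 6.92% (3.50 to 12) of the v2 wide peaks against 14.1% of the narrower class, and 12.1% (9.49 to 15.1) of the v3 wide peaks against 15.8%, both narrower shares being above the intervals. For v1 the check is void, because the strand was known for only 30 of 41 wide peaks, or 73.2%, against 82.8% in v2 and 81.3% in v3. The median length of the host genes was 96.2, 105.2 and 129.5 kb for wide peaks of v1, v2 and v3, against 132.5, 123.1 and 129.1 kb for peaks of 2000 to under 4000 bp.

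Promoters that wide peaks covered whole numbered 7 in v1, 19 in v2 and 114 in v3. Their median GC content was 66.0%, 59.3% and 60.5%, against 61.7%, 61.7% and 61.3% for promoters inside narrower peaks and 56.7% over all 21045 promoters of protein-coding genes. The median observed-to-expected CpG ratio was 0.642, 0.519 and 0.657, against 0.758, 0.743 and 0.746 under narrower peaks and 0.574 over all. Over the merged regions, 137 promoters, of 107 genes, were covered. Searched on both strands, with overlapping matches kept, GGGCGG was in 59.9% of these and in 46.7% of all promoters, and CCAAT in 32.1% against 38.5%. TATAAA, the TATA box, was in 4.38% against 12.7%. CACGTG, the E-box, was in 5.84% against 7.91%, and TGACGTCA, the cAMP response element bound by CREB, in 0.730% against 2.26%. Within v3 alone, the GC box was in 62.3% of promoters inside wide peaks and in 63.2% of those inside narrower peaks. In the same order, the NF-Y core was in 32.5% and 37.3% and the TATA box in 5.26% and 6.59%. The E-box was in 6.14% and 9.74%, and the cAMP response element in 0.877% and 3.09%.

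Of the regions, 107 of the 1121 not on chromosome 18 held an annotated start, and 4 held the starts of at least 2 genes. The midpoint was in a gene for 954 regions, 69 lay over at least 2 protein-coding genes, and 125 lay over no gene. The median distance of these 125 to the nearest end of a protein-coding gene was 12544 bp. Of them, 57 were within 10 kb, while 17 were more than 100 kb and 5 more than 500 kb away, and 76 of the 125 were wide in v3 alone. Wide regions were at times neighbours: 23 neighbouring pairs were at most 10 kb apart, 81 at most 50 kb and 140 at most 100 kb. The spacing of narrower peaks was not counted, so these pairs show neither clustering nor its absence. In Tbr1 a pair of v3 regions was 2696 bp apart.

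A gene is called met here when a wide peak lay in its span or within 5 kb of it. By that rule 0.231% of the 21631 protein-coding genes were met in v1, 1.16% in v2, 3.83% in v3 and 4.89% in any library. The share grew with the length of the window, which has more room for peaks: it was 1.29% in any library for windows under 20 kb, 13.1% for those of 100 kb to under 200 kb, 18.3% for those of 200 kb to under 500 kb and 38.3% for those of at least 500 kb. The median window was 27.3 kb.

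Among the genes with the most regions in their windows were several long ones. Celf2, with a window of 867 kb, had 8 regions, with 0, 2 and 8 of them wide in v1, v2 and v3. Grin2b had 5, with 2, 2 and 3, in 470 kb. Nrg3 had 5, with 0, 1 and 5. Lrrc7, a postsynaptic scaffold gene, had 4 regions, with 0, 2 and 2. Prickle2, a planar polarity gene, had 4 and so had Rere, a transcriptional corepressor gene.

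Of the 254 genes on 19 lists of cell types and gene classes, 4 were met in v1, 14 in v2, 20 in v3 and 31 in any library. The lists were chosen with earlier results of these data known, and their counts carry no test. Each count below is read against the 4.89% of all protein-coding genes met in any library and against the window lengths of the list. The 4 neuron lists had 12 of 52 genes met in any library (23.1%), and 17 of their windows (32.7%) were over 100 kb. The 7 lists of glia, vessels and ependyma had 4 of 87 met (4.60%), near the share over all genes. All 4 were on the lists of oligodendrocytes and their precursors. Of the windows of these 7 lists, 18 (20.7%) were over 100 kb. Of all 21631 protein-coding genes, 1697 had windows of 100 kb to under 200 kb, 825 of 200 kb to under 500 kb and 235 of at least 500 kb. Long windows were thus more frequent in both groups of lists than over all genes, and the 4.89% is not matched for length. The part of window length in these counts was not tested.

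Among excitatory neuron genes, with a median window of 103.7 kb, 5 of 15 were met. Besides Grin2b, whose widest peaks were 4206, 4567 and 6050 bp, Tbr1, a transcription factor of deep cortical layers, had widest peaks of 1961, 1820 and 4878 bp in v1, v2 and v3, and Bcl11b, a factor of corticospinal neurons, had 3002, 4422 and 3109 bp. Inhibitory neuron genes, with a median window of 18.5 kb, had 3 of 13 met: Gad2, a GABA-synthesising enzyme, with 4311, 2134 and 2369 bp, Adarb2 with 2366, 3600 and 4214 bp and Lhx6, a factor of ganglionic eminence interneurons, with 1233, 1896 and 4107 bp. The windows of these genes were 82.9 kb for Gad2, 576 kb for Adarb2 and 34.0 kb for Lhx6, all above the median of the list. Striatal neuron genes, with a median window of 52.9 kb, had 3 of 12 met. Adora2a was wide in v2, Meis2, a homeobox gene, was wide in v3 with 4350 bp, and Foxp1, a forkhead factor, was wide in v1 and v2 with 4176 and 4072 bp in different places. The cerebellar list had 1 of 12 met, Cbln3 of granule cells, with 2194, 4194 and 2345 bp.

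Oligodendrocyte genes had 3 of 14 met. Cnp, a myelin enzyme gene, had 1555, 4025 and 2042 bp, Sox10, a lineage factor, had 3544, 4012 and 2296 bp, and Qk, an RNA-binding regulator of myelination, had 2754, 2246 and 4181 bp. Of 10 precursor genes 1 was met, Sox8 with 1362, 2144 and 4986 bp. The lists of astrocytes (13 genes), microglia (14), endothelium, mural cells and ependyma (12 each) had 0 genes met. The largest share that a count of 0 allows was taken as 3 divided by the number of genes. It was 21.4% to 25% for these lists, above the 4.89% over all genes, so the zero of a single list does not set it apart. Together the 5 lists had 0 of 63 genes met, with 12 windows (19.0%) over 100 kb. No limit was computed for the lists together.

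Immediate early genes, induced by neuronal activity, had 2 of 18 met, both in v3: Ier2 with 954, 1616 and 4280 bp and Egr2 with 1415, 1030 and 4226 bp. The synaptic list, with a median window of 73.8 kb, had 4 of 16 met, among them Dlg4, the gene of the scaffold PSD-95, with 2282, 4508 and 3420 bp. Syt1, the calcium sensor of vesicle release, had 3106, 2995 and 4446 bp. Of 18 chromatin and transcription genes, with a median window of 147 kb, 4 were met. Auts2 had 2968, 3938 and 5330 bp and Tcf4, a bHLH factor, 2506, 4723 and 4009 bp, its v2 and v3 wide peaks lying in different places. Ncor1, a corepressor gene, had 2891, 4339 and 4286 bp, its v2 and v3 regions lying 1069 bp apart.

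Of 16 noncoding RNA genes 3 were met: Rian of an imprinted locus with 3720, 3695 and 4828 bp, Neat1, the scaffold of paraspeckles, with 2339, 4304 and 2969 bp, and Miat with 1966, 1999 and 4169 bp. Of 18 housekeeping genes only Ywhaz was met. Among the 30 genes of other tissues, lymphocytes, liver and muscle, 1 was met, the B cell factor Pax5, with 3903, 2112 and 4853 bp in a window of 196 kb. In 26 of the 31 genes met the wide peaks were of 1 library only. Every one of the 31 had peaks of all 3 libraries in its window. Listed genes that were not met had such peaks too, for example Actb with widest peaks of 1843, 1954 and 2651 bp. Peaks of all libraries in the window therefore do not mark the genes met.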

How the data were processed

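Each of the 3 libraries, sciATACv1, sciATACv2 and sciATACv3, was represented by the peak list that the authors deposited, with chromosome, start and end per peak and no count, score or height. ArchR, MACS2 and the build mm10 are named in the submitters' processing notes, without an aligner, versions, a calling threshold or excluded regions. Depth is unknown. Coordinates are 1-based and width is end minus start of the deposited list.

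Peaks of at least 4000 bp were taken per library, and those of different libraries overlapping by at least 1 bp were merged. Positions were set against RefSeq's gene table of GRCm38.p6 (49554 genes, 21631 protein-coding). In distances and shares, a gene end is either limit of the gene span, the start or the 3′ end, unless the 3′ end is named. Its table of promoters has no chromosome 18 and holds 17274 of the protein-coding genes, 81.8% of the 21120 outside chromosome 18, and starts and strand come from it. Shares have exact Clopper-Pearson 95% intervals. With 1 library per version no test between versions was made.

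The members and the gene and artefact lists were chosen with earlier results of these data known. Genes were named by fixed rules: the 5 widest peaks per library, regions wide in all libraries, regions at artefact loci, up to 3 genes per list by width and the genes with the most regions. Some genes that these rules name are not reported here. Promoters were to be printed for regions wide in all libraries. None of those holds one, so regions wide in 2 libraries were used, a choice made after their values were seen, as was the naming of the regions wide in 2 libraries and of those with a microRNA. Of 19 artefact genes 11 were not matched in the table, and loci on chromosomes 14 and 2 were added after the peaks had been seen. Other widths, distances and windows were tried as alternatives. Interval functions were tested on simulated data. Python 3.11.15, numpy 2.4.6, pandas 2.3.3, scipy 1.17.1 and matplotlib 3.10.9 were used.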

Additional observations from a re-analysis of the deposited data

How the results depend on the processing

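Counts moved most with the width minimum, which chose the members. At 3000, 3500 and 5000 bp there were 752, 169 and 3 wide peaks in v1, 2898, 934 and 22 in v2 and 6104, 2381 and 107 in v3, which gave 8866, 3316 and 130 merged regions, of which 79, 10 and 0 were wide in all libraries. At each of these minimums v3 had the most wide peaks and v1 the fewest. With the 48 widest peaks of each library taken instead (48 in v2 and 48 in v3, the narrowest 4011, 4678 and 5391 bp in v1, v2 and v3), there were 137 merged regions, 1 of them wide in all libraries, counts likewise added after seeing the data. In protein-coding genes alone the share of wide v3 peaks was 79.5%. The share at a gene end within 500 bp and 5 kb was 6.25% and 37.5% in v1. Within 500 bp, 2 kb and 5 kb and by any overlap with 1 kb around the end it was 2.57%, 12.9%, 25% and 18.8% in v2 and 6.3%, 21.1%, 32.1% and 27.9% in v3. These shares were computed for wide peaks only. Whether their comparison with narrower classes holds at other distances was therefore not tested. With 1 kb around gene ends only, 2, 3 and 8 listed genes were met in v1, v2 and v3. Leaving out the artefact loci, an alternative chosen after seeing the data for the counts of wide peaks and of regions wide in all libraries, gave 44, 269 and 869 wide peaks and 2 regions wide in all libraries. No replicate could be left out, since each version has 1 library. No paired analysis was possible because each version has 1 library and the labels give no shared replicate numbers. Peaks without height or depth do not show whether a wide peak is 1 open stretch or several joined ones, and whether the versions, the libraries or their depth set the number of wide peaks cannot be told apart.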

Other observations

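The number of wide peaks per chromosome in v3 ran from 113 per 100000 peaks on chromosome 7 (75.7 to 162) to 226 on chromosome 11 (175 to 288). Chromosome X had 126 (68.8 to 211) in v3, from 14 wide peaks. In v2 it had 9.08 (1.10 to 32.8), from 2 wide peaks, and in v1 0 (0 to 30.0). Each of these intervals for chromosome X includes the rate of the whole library, 170.5 in v3, 32.0 in v2 and 7.71 in v1. A v3 peak of chromosome X in Il1rapl1, a synaptic adhesion gene, measured 5251 bp. The region farthest from a protein-coding gene end, at chr16:83420251-83424385, lay 1295964 bp from Mrpl39.

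Both edges of a wide peak were matched within 10 bp by peak edges of another library in 0 of 48 v1 peaks seen in v2, 2 of 48 in v3, 10 of 272 v2 peaks in v1, 0 of 272 in v3, 11 of 873 v3 peaks in v1 and 12 of 873 in v2. For v1 seen in v2 the share in the class of 2000 to under 4000 bp was 4.15%, and the other classes of that width had 1.06% to 2.75%.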
